A study of Mus musculus with 6 samples.

Results

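The transcripts described here encode the adaptors, docking proteins and RAS GTPases that carry the signal of FGF receptors into the cell, namely Frs2, Frs3, Grb2, Ptpn11, Gab1, Sos1, Shc1, Nras and Hras. All probe sets with exactly 1 gene symbol among these 9 in the platform's annotation were taken, whatever their values. They were 19 of the 45101 probe sets on the array and stood for 7 of the 9 genes. No probe set was named for Frs2 or Hras in that annotation, and their levels were not analysed here. Transcript levels were read on Affymetrix arrays from optic fissure, the ventral groove of the optic cup, taken by laser microdissection from C57BL/6J mouse embryos at E11.5. All 6 arrays came from embryos with floxed alleles of both receptor genes (Fgfr1fx/fx;Fgfr2fx/fx). The 3 control arrays had the genotype Six3Cre-;Fgfr1fx/fx;Fgfr2fx/fx, and the 3 FGFR mutant arrays Six3Cre+;Fgfr1fx/fx;Fgfr2fx/fx, in which the Six3Cre transgene deletes floxed sequence in the early eye field and its derivatives. Tissue that does not derive from this field, such as periocular mesenchyme and blood vessels, keeps its receptors in the mutants. The labels do not say whether the arrays of a group came from separate embryos, litters or pools. The p-values therefore rest on the variation among these 6 arrays, part or all of which may be technical. Arrays are named by their group and by the number in their title, which is 8711, 9216 or 9266 in each group, and each of the 6 was used.

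An FGF receptor that has bound its ligand phosphorylates itself and then the docking protein FRS2, or its relative FRS3, which sits under the membrane and binds the receptor through a phosphotyrosine-binding domain. Phosphorylated FRS2 recruits the adaptor GRB2 and the phosphatase SHP2, encoded by Ptpn11. GRB2 brings the exchange factor SOS1, which loads RAS with GTP, and the docking protein GAB1, which recruits PI3 kinase and more SHP2. SHC1 is an adaptor that links many tyrosine kinase receptors to GRB2. RAS bound to GTP then starts the RAF, MEK and ERK kinase cascade. In the mouse eye, FGF signalling is known to be needed for development of the optic disc and for closure of the optic fissure. Which of these proteins it needs there was not tested here. The arrays measured transcript levels and not phosphorylation, GTP loading or protein.

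The question the comparison addresses is whether the transcript levels of these signalling components differ between optic fissures with and without Cre-driven deletion of both receptors. Gab1 and Shc1 were the members whose values were higher in the mutants, and the brightest probe sets of the other members had similar means in both groups. For both tested Gab1 probe sets all 3 mutant arrays lay above all 3 control arrays, with a log2 difference of 0.67 (SE 0.22, n = 3 arrays per group) for the brighter one. The brightest probe sets of Frs3, Grb2, Ptpn11, Sos1 and Nras all had log2 differences within 0.1 of 0. No member passed limma's test after Benjamini-Hochberg adjustment over all 27022 probe sets tested, and the smallest adjusted p among them was 0.776.

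The sequence upstream of the start site is shown for 3 members, Gab1 and Shc1 because each had a probe set whose groups did not overlap, and Ptpn11 as a member whose brightest probe set had equal means in both groups. Each window holds the 250 bases before the RefSeq transcription start in build GRCm38.p6, 5′ to 3′ on the strand of the gene, from RefSeq, which had promoter entries for all 9 genes. Capitals mark CGGAAG, 1 form of the site bound by ETS factors, a family with members that act downstream of ERK. Other forms of the site, which share the shorter core GGAA, were not searched.
Gab1, chr8:80880520-80880769, minus strand: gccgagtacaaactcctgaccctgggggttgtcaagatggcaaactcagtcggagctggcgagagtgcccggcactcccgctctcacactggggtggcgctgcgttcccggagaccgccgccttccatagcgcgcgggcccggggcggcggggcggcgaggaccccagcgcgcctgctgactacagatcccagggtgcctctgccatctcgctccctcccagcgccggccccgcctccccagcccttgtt
Shc1, chr3:89418301-89418550, plus strand: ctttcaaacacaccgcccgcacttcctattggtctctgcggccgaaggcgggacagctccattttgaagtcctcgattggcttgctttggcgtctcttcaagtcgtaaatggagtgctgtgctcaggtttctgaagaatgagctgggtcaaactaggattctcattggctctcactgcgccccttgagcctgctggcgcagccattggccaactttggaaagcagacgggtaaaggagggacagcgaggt
Ptpn11, chr5:121191398-121191647, minus strand: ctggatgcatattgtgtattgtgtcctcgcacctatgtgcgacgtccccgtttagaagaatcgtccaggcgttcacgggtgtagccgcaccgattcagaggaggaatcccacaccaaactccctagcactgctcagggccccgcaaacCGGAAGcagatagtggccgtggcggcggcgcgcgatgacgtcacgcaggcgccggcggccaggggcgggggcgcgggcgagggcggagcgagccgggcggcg
The letters CGGAAG on either strand were in 13.6% of the 32851 upstream windows of this length in the table. In the Ptpn11 window they start 102 bases before the transcription start, and in the Gab1 and Shc1 windows shown they were not found. CACGTG, the E-box bound by MITF, TGACTCA, the letters bound by AP-1, and the CArG box bound by SRF were also searched on both strands. They were in 6.02%, 4.46% and 1.47% of all windows, and none of them was found in the 3 windows shown. Gab1 and Shc1 each have a second start site in the table, whose windows are not printed. The second Gab1 window held none of the motifs, and the second Shc1 window, inside the gene, held TGACTCA starting 92 bases before that start. None of the motifs searched overlaps another in these windows. A match is a string of letters and not evidence of binding, and a window without one says only that these letters are not in it. GC content was 70.8% in the Gab1 window, 54.4% in the Shc1 window and 66.8% in the Ptpn11 window. The Gab1 gene spans bases 80764431 to 80880519 of chromosome 8, Shc1 bases 89418551 to 89430029 of chromosome 3, and Ptpn11 bases 121130533 to 121191397 of chromosome 5. All 3 windows lie outside the annotated bounds of their genes.

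Intensities are the deposited linear values, with 1 value per probe set and array, scaled to the same trimmed mean of 150.0 in every array. The mutant 8711 array stood apart from the other 5. Its median intensity was 18.1, against 28.7 to 34.6 in the others, and its Gapdh signal at the 3 prime end was 93.6 times that at the 5 prime end, against 4.26 to 15 times in the others. The log2 Gapdh ratio differed between the groups by 0.90 (exact permutation test, two-sided, p = 0.7, where 0.1 is the lowest that 3 against 3 arrays can give). For Actb the difference was 0.26, with an exact permutation p of 0.8. All 7 optic cup markers with a probe set were above the filter level, with control intensities of at least 206.7 in every array, and 5 of the 7 had lower means in the mutants. Of the targeted receptors, the brightest Fgfr2 probe set read 351, 314 and 474 in controls 8711, 9216 and 9266 against 870, 928 and 1316 in mutants 8711, 9216 and 9266, and the brightest Fgfr1 probe set 247, 89.8 and 238 against 59.9, 64.1 and 141. Where the probes lie relative to the floxed exons was not analysed here, and the genotypes in the labels are not checked by these values.

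**Figure D1:**
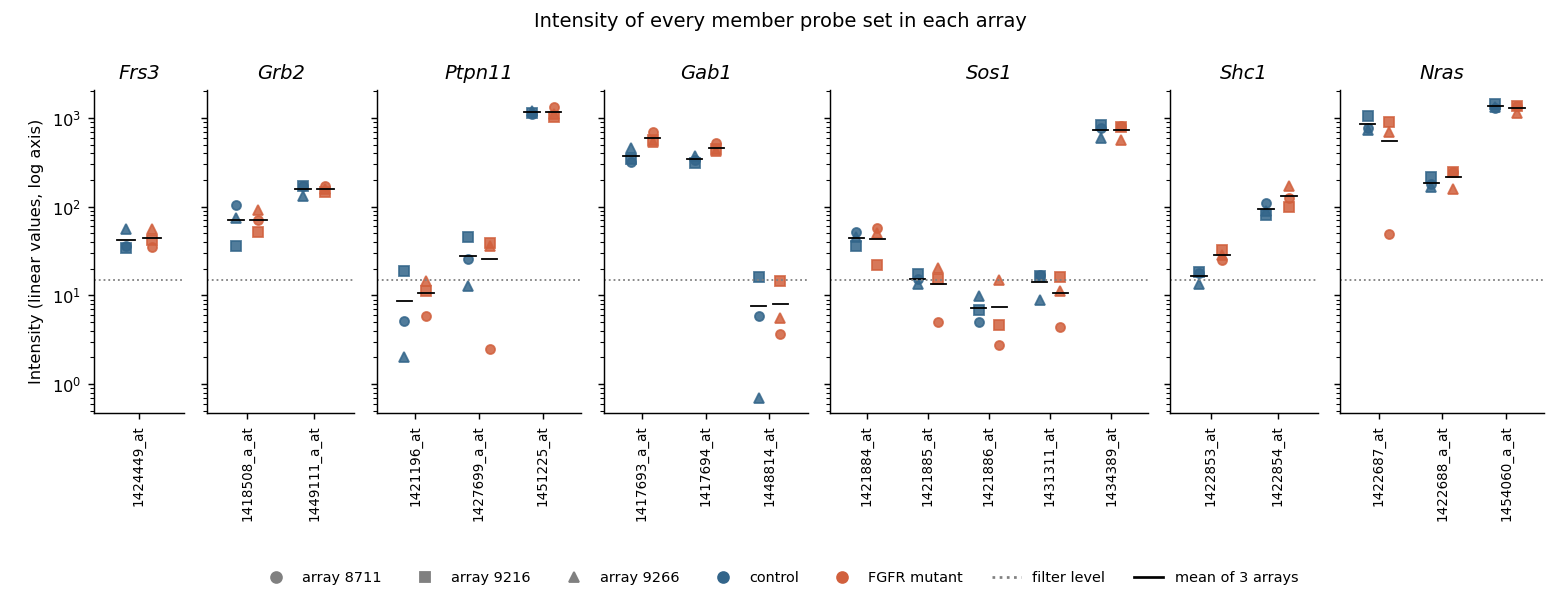
Intensity of all 19 member probe sets (linear values on a log axis) in each of the 3 control (blue) and 3 FGFR mutant (orange) arrays, with the symbol giving the array number, a bar for the mean and a dotted line at the filter level of 15.1. Groups separate for the 2 brighter Gab1 probe sets and for the dimmer Shc1 probe set, and the mutant 8711 array falls far below the others in 1 Nras probe set.

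Probe sets were tested where their mean log2 value reached the filter level, which corresponds to an intensity of 15.1. This kept 14 of the 19 member probe sets, with at least 1 for each of the 7 genes. Of the 14, 7 were above and 7 below 0, with a median log2 difference of 0.043, against -0.049 over all probe sets tested. The median size of the difference, without its sign, was 0.16 for the members and 0.30 for all. Past the adjusted threshold there were 0 of 14 member probe sets, against 0 (0%) of all probe sets. At an unadjusted p under 0.05 in limma there was 1 of 14 (7.14%), that of Gab1, higher in the mutants, against 5.57% of all probe sets in either direction and 3.02% in that direction. The groups did not overlap for 3 of 14 (21.4%), all higher in the mutants, against 13.5% of all probe sets in either direction and 7.08% in that direction. These are counts over few probe sets, 2 of the 3 of the same gene, and no test was made over the members as a set.

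**Figure D2:**
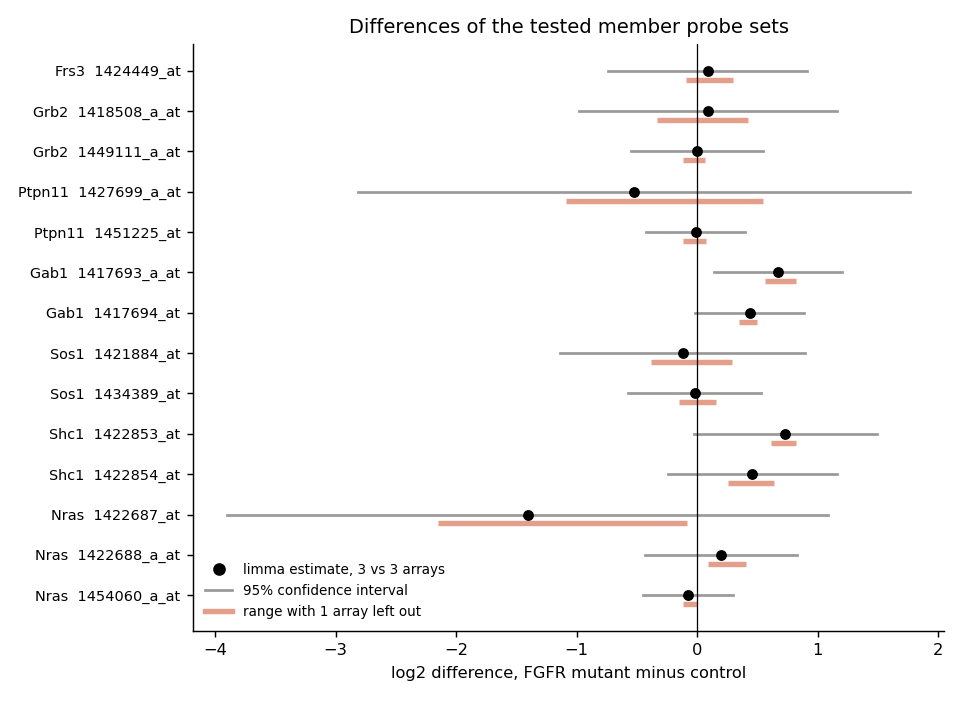
Log2 differences (FGFR mutant minus control) of the 14 tested member probe sets, with the limma estimate (point), its 95% confidence interval (grey) and the range when 1 array is left out (orange). The Gab1 estimates of 0.67 and 0.44 stay above 0 whichever array is left out, while the estimate of -1.40 for 1 Nras probe set moves to -0.08 without mutant 8711.

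Gab1 was the docking protein gene with the clearest separation between the groups. Its brightest probe set (1417693_a_at) read 322, 347 and 461 in controls 8711, 9216 and 9266, against 690, 569 and 532 in mutants 8711, 9216 and 9266. Every mutant array was above every control array, with mutant 8711 the highest of all. The control mean was 377 ± 74.0 and the mutant mean 597 ± 82.7 (each SD, n = 3), which gives a log2 difference of 0.67 (SE 0.22, 95% confidence interval 0.14 to 1.20), or 1.59-fold. In limma the unadjusted p was 0.0198, the rank by p was 686 among the 27022 probe sets, and the adjusted p was 0.776.

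The second tested Gab1 probe set (1417694_at) placed the arrays of the mutant group in the same order. It read 339, 313 and 372 in the controls, against 522, 443 and 424 in the mutants, again without overlap. On average the controls had 341 ± 29.5 and the mutants 463 ± 51.9 (each SD, n = 3), which gives a log2 difference of 0.44 (SE 0.19, interval -0.021 to 0.89), with a limma p of 0.0587 and an adjusted p of 0.852. The third Gab1 probe set (1448814_at) was below the filter level, with values from 0.7 to 16.2 in the controls and 3.7 to 14.6 in the mutants, and was not tested.

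Gab1 kept its direction without the array that stood apart. Without mutant 8711 the brightest probe set had a log2 difference of 0.56 (SE 0.22, unadjusted limma p of 0.0369, adjusted p = 0.535), and the second 0.35 (SE 0.20, unadjusted limma p of 0.116, adjusted p = 0.676). Leaving out control 8711 gave the brightest probe set 0.57 with a limma p of 0.0818 (adjusted p = 0.999), and leaving out control 9216 gave 0.62 with a p of 0.0577 (adjusted p = 0.907), so that leaving out either ended the unadjusted call, as did centring each array on its median or leaving out both 8711 arrays. Over all alternatives its adjusted p ran from 0.155 to 0.999.

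Shc1, the adaptor gene, also had higher means in the mutants with both of its probe sets. The brighter one (1422854_at) read 111, 81.5 and 89.6 in the controls, against 125, 100 and 171 in the mutants, with mutant 9216 below control 8711. Averages were 94.0 ± 15.2 in the controls and 132 ± 35.9 in the mutants (each SD, n = 3), which gives a log2 difference of 0.46 (SE 0.30, interval -0.24 to 1.16), with a limma p of 0.166 and an adjusted p of 0.852. Mutant 9266 was the highest array, and without it the difference was 0.26.

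The dimmer Shc1 probe set (1422853_at) was close to the filter level. It read 17.7, 18.4 and 13.6 in the controls, against 24.8, 32.1 and 28.7 in the mutants, without overlap. The control mean was 16.6 ± 2.59 and the mutant mean 28.5 ± 3.65 (each SD, n = 3), which gives a log2 difference of 0.73 (SE 0.32, interval -0.025 to 1.49), with a limma p of 0.0561 and an adjusted p of 0.852. At this intensity the added value of 1.7 makes the log2 difference understate the ratio of the means. With 1 array left out it ran from 0.61 to 0.82. Among these fits, the limma p of this probe set was under 0.05 only without mutant 8711, at 0.0451 (adjusted p = 0.563).

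Summed markers of pigment epithelium, periocular mesenchyme and macrophages were higher in the mutants, as were Gab1 and Shc1, while those of some other cell types were not. The 9 pigment epithelium markers all had higher means in the mutants, with summed intensities of 11666 to 13480 in the control arrays and 19190 to 29037 in the mutant arrays. All 10 periocular mesenchyme markers with a probe set were higher, with sums of 1116 to 2356 and 2810 to 3282, and 8 of 9 macrophage markers, with sums of 1453 to 1970 and 2146 to 2763. The summed optic cup markers went the other way, with 5382 to 5970 in the controls and 4496 to 5128 in the mutants. Of the 7, 5 had lower and 2 had higher means in the mutants. Six6, which encodes an eye-field transcription factor, read 1289, 1208 and 1307 in the controls, against 433, 657 and 714 in the mutants. Six3 and Rax were also lower in every mutant array than in every control array. The groups overlapped for Lhx2, with 975, 707 and 884 against 789, 716 and 1068. They also overlapped for Vax2, with 928, 524 and 778 against 742, 588 and 420. Values of Vax1 and Pax6, also in this list, are not given here, so the genes shown do not stand for the whole list. Endothelial markers were higher for 2 of 7, with sums of 267 to 564 and 205 to 404, and lens markers for 3 of 5, with 1049 to 1608 and 328 to 2131. All 5 erythroid markers had higher means in the mutants, with sums of 13277 to 17770 and 17010 to 18307. None of the markers in these lists was at 0 in any array, and Pecam1, Tie1 and Foxe3 were under the filter level. The part of these cells in the Gab1 and Shc1 values was not tested. In bulk tissue, fewer cells of a type and less RNA per cell cannot be told apart.

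Frs3, the docking protein that binds the receptor directly, had 1 probe set (1424449_at). It read 35.7, 34.4 and 56.1 in controls 8711, 9216 and 9266, against 35.2, 42.0 and 56.3 in the mutants of the same numbers. Both 9266 arrays were the highest of their group, and the groups overlapped throughout. In the controls the mean was 42.1 ± 12.2 and in the mutants 44.5 ± 10.8 (each SD, n = 3), which gives a log2 difference of 0.087 (SE 0.35, interval -0.74 to 0.91), with an adjusted p of 0.958 in limma. The interval is wide, so a moderate change of Frs3 was not detectable with these arrays. Its sign changed when control 8711, control 9216 or mutant 9266 was left out.

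Grb2 encodes the adaptor that links the docking proteins to SOS1. Its brighter probe set (1449111_a_at) read 169, 173 and 133 in the controls, against 170, 145 and 158 in the mutants, with the mutant values inside the range of the controls. Both means were 158, with SDs of 21.8 and 12.7 (n = 3 each), and the log2 difference was -0.0017 (SE 0.23, interval -0.55 to 0.55). It was 0.11 with each array centred on its median. The dimmer probe set (1418508_a_at) had 104, 36.1 and 74.0 against 71.1, 51.5 and 92.4, a difference of 0.088 (SE 0.45), and its spread between control arrays was wide, control 9216 being the lowest of all 6. Neither Grb2 probe set had an unadjusted limma p below 0.421 with any array left out.

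Ptpn11, the gene of the phosphatase SHP2, had a bright probe set with equal means in both groups. This probe set (1451225_at) read 1108, 1149 and 1206 in the controls, against 1333, 1017 and 1110 in the mutants. The highest and the lowest of the 6 values were both from mutant arrays. Control arrays averaged 1154 ± 49.0 and the mutants 1154 ± 162 (each SD, n = 3), which gives a log2 difference of -0.0092 (SE 0.17, interval -0.42 to 0.40), or 0.10 with median centring. A second probe set (1427699_a_at), far dimmer, had 25.8, 45.9 and 12.7 against 2.5, 39.0 and 35.7, a log2 difference of -0.52 (SE 0.96), and 0.55 without mutant 8711, which was the lowest array. The third (1421196_at) was below the filter level, with values from 2.0 to 18.7 in the controls and 5.9 to 14.4 in the mutants.

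Sos1 encodes the exchange factor that GRB2 carries to the membrane, and 2 of its 5 probe sets were tested. The brighter one (1434389_at) read 762, 823 and 602 in controls 8711, 9216 and 9266, against 821, 790 and 559 in the mutants of the same numbers. The 9266 array was the lowest in both groups, and the groups overlapped. Averages were 729 ± 114 in the controls and 723 ± 143 in the mutants (each SD, n = 3), which gives a log2 difference of -0.019 (SE 0.23, interval -0.57 to 0.53), or 0.093 with median centring. The other tested probe set (1421884_at) had 51.4, 35.9 and 45.9 against 58.1, 21.9 and 50.6, a difference of -0.12 (SE 0.43), with mutant 9216 the lowest array. The remaining 3 had values from 5.0 to 17.5 in the controls and 2.8 to 20.2 in the mutants, below the filter level on average.

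Nras, the RAS gene among the members that was measured, gave different readings by probe set in 1 array. Its brightest probe set (1454060_a_at) read 1281, 1422 and 1344 in the controls, against 1346, 1355 and 1145 in the mutants. Mutant 9266 was the lowest array, and mutants 8711 and 9216 lay within the range of the controls. The control mean was 1349 ± 70.4 and the mutant mean 1282 ± 119 (each SD, n = 3), which gives a log2 difference of -0.077 (SE 0.16, interval -0.45 to 0.30), with an adjusted p of 0.921 in limma, or 0.035 with median centring. This was the narrowest interval of the 14 tested member probe sets.

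The second Nras probe set by brightness (1422687_at) read 761, 1052 and 738 in the controls, against 49.0, 898 and 703 in the mutants. Mutant 8711 was 14.3-fold below the lowest of the other 5 arrays, and the other mutant arrays were close to the controls. The log2 difference was -1.40 (SE 1.05, interval -3.90 to 1.09), and without mutant 8711 it was -0.08 (SE 0.23, unadjusted limma p of 0.734, adjusted p = 0.948). In mutant 8711 there were 372 tested probe sets at least 10-fold below the lowest of the other arrays, where that lowest value was at least 100, and in each of the other 5 arrays there were 0. This Nras probe set was the only member probe set among the 372. The third Nras probe set (1422688_a_at) had 181, 215 and 166 against 248, 246 and 160, a difference of 0.20 (SE 0.26), with mutant 8711 the highest array. The mean difference of the 3 Nras probe sets was -0.43.

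**Figure D3:**
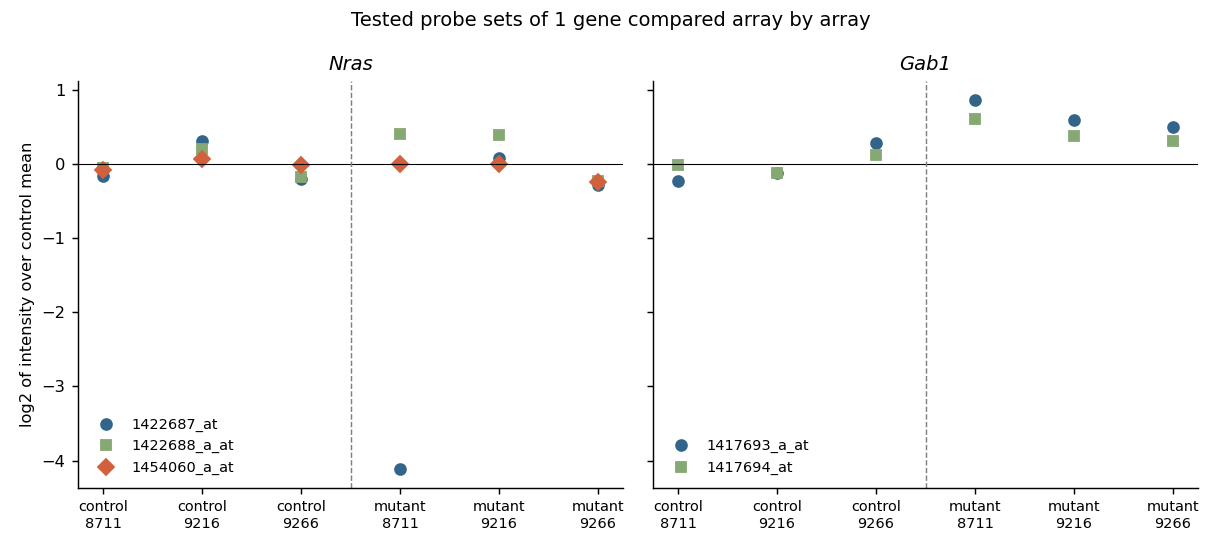
Log2 ratio of each array's intensity to the mean of the 3 control arrays, for the tested probe sets of Nras (left, 3 probe sets) and Gab1 (right, 2 probe sets), with control arrays to the left of the dashed line and mutant arrays to its right. Of the Nras probe sets 1 falls in mutant 8711 alone, from intensities of at least 702.7 in the other arrays to 49.0, while both Gab1 probe sets lie above the control mean in all 3 mutant arrays.

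The members also differed in their spread between arrays of 1 group, given here as the SD of the log2 level of the brightest probe set over 3 arrays. In the controls it was 0.06 for Ptpn11, 0.08 for Nras, 0.21 for Grb2, 0.22 for Shc1, 0.23 for Sos1, 0.27 for Gab1 and 0.38 for Frs3. In the mutants it was 0.11 for Grb2, 0.14 for Nras, 0.19 for Gab1, 0.20 for Ptpn11, 0.30 for Sos1, 0.33 for Frs3 and 0.38 for Shc1. Nras was among the lowest in both groups, while the place of Ptpn11 and Grb2 changed from one group to the other. These SDs were not adjusted for intensity, which ran from 34.4 to 56.3 over the 6 arrays for Frs3 and from 1017 to 1333 for Ptpn11. Levels of different probe sets are not set against each other as amounts of transcript here, since their probes differ in response.

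**Figure D4:**
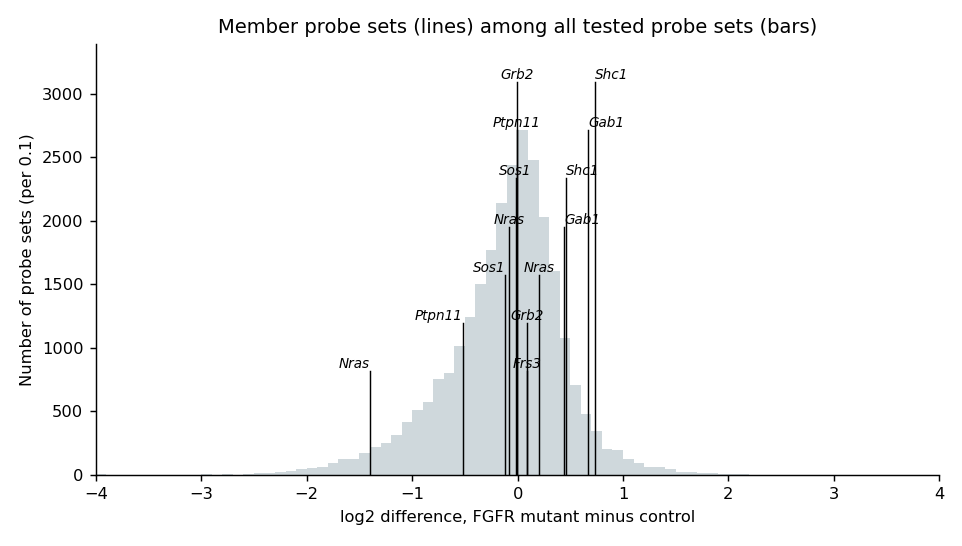
Number of probe sets by log2 difference (FGFR mutant minus control, bars 0.1 wide) for all 27022 probe sets tested, with differences beyond the axis counted in the end bars, and the 14 member probe sets as labelled lines (heights have no meaning). Most members lie near 0, Gab1 (0.44 and 0.67) and Shc1 (0.46 and 0.73) lie to the right, and 1 Nras probe set (-1.40) to the left.

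The genes whose levels followed each member most closely over the 6 arrays were found by the root mean square difference of their centred log2 values. For Gab1 these were Extl2, a glycosyltransferase of the exostosin family, at 0.091, and Slco3a1, an organic anion transporter, at 0.096, against a median of 0.481 over all genes. Extl2 read 373, 428 and 460 in the controls, against 776, 626 and 595 in the mutants, with a log2 difference of 0.66 (SE 0.20, limma adjusted p = 0.709). Since Extl2 was chosen for its likeness to Gab1 over these same arrays, its similar values follow from the choice and add no separate evidence. For Shc1 they were Slc3a2, the heavy chain of amino acid transporters, at 0.058, and Fbln5, an extracellular matrix protein, at 0.067. Nras was closest to Vdac1, a channel of the outer mitochondrial membrane, at 0.022, and Usp27x at 0.032. Ptpn11 was closest to D2hgdh and Actr8, both at 0.040, Grb2 to Tfap2a (0.032) and Phf8 (0.044), Sos1 to Usp6nl (0.049) and Ndufaf5 (0.063), and Frs3 to Apbb3 (0.077) and Gfod2 (0.096). These are the closest of 12282 genes over 6 arrays that share their scaling. The SD over the 6 arrays was 0.11 for Nras and 0.42 for Gab1, and the median for Nras was 0.372. A member that varies little is close to other genes that vary little, so these values are not compared between members.

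Of 97 other genes of the pathway, 88 had a probe set with 1 symbol and 76 were tested, each by its brightest probe set. None passed the adjusted threshold in limma. At an unadjusted p under 0.05, 3 were higher and 2 lower in the mutants, against 4.40% and 2.52% of the 12282 genes tested. The median log2 difference of the 76 was 0.042, against 0.032 over all genes. Differences were above 0 for 41 and below 0 for 35 of the 76, against 6578 and 5704 of the 12282 genes. The counts by list below are over few genes and were not tested. Among 20 other adaptors and docking proteins, 13 had differences above 0, with a median of 0.065. Grb14, an adaptor of receptor tyrosine kinases, read 41.6, 53.6 and 34.6 in the controls, against 61.4, 102 and 78.7 in the mutants, for a log2 difference of 0.87 (SE 0.33, adjusted p = 0.852). Cbl, a ubiquitin ligase of activated receptors, had -0.75 (SE 0.46), and -0.20 without mutant 8711. A second Cbl probe set had -1.45 (SE 0.78, unadjusted limma p of 0.108), and its value without mutant 8711 was not examined here.

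Exchange factors and GTPase-activating proteins, which switch RAS and its relatives on and off, went both ways, with 9 of 14 above 0 and a median of 0.12. Rasgrp1, an exchange factor for RAS that responds to diacylglycerol, read 60.8, 46.6 and 58.8 in the controls, against 294, 249 and 112 in the mutants. Every mutant array was above every control array, with mutant 9266 the lowest of the mutants. In the controls the mean was 55.4 ± 7.69 and in the mutants 218 ± 95 (each SD, n = 3), which gives a log2 difference of 1.84 (SE 0.41, unadjusted limma p of 0.00274, adjusted p = 0.516). A dimmer Rasgrp1 probe set had 0.97 (SE 0.38). Rapgef1, an exchange factor for RAP1, had 338, 312 and 382 against 217, 220 and 283, a difference of -0.52 (SE 0.21, adjusted p = 0.852).

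Among 13 RAS-related GTPases, 7 were above 0, with a median of 0.029. Diras2, a RAS-related GTPase of the nervous system, read 167, 249 and 199 in the controls, against 61.3, 72.1 and 99.2 in the mutants, without overlap. Its log2 difference was -1.39 (SE 0.29, unadjusted limma p of 0.00216, adjusted p = 0.504). Rit1, another RAS-related GTPase, had 0.44 (SE 0.25), with overlapping groups.

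Of 11 tested genes of the RAF-MEK-ERK module, 7 were below 0, with a median of -0.098. Lamtor3, a scaffold that binds MEK and ERK at late endosomes, read 859, 1159 and 863 in the controls, against 1764, 1712 and 1480 in the mutants, without overlap. Its log2 difference was 0.79 (SE 0.19, unadjusted limma p of 0.00427, adjusted p = 0.536). Shoc2, a scaffold of RAS and RAF, had -0.48 (SE 0.25), and 0.33 (SE 0.31) with a dimmer probe set.

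The 10 genes of RAS lipid processing, which attach and trim the lipid anchor of RAS proteins, were split evenly, with 5 above and 5 below 0 and a median of -0.051. Rce1, the protease that trims the end of RAS proteins after prenylation, had 156, 179 and 135 against 60.1, 134 and 112, a log2 difference of -0.68 (SE 0.35), and -0.34 without mutant 8711. Lypla2, a thioesterase that removes palmitate, had -0.55 (SE 0.33), and -0.24 without it. For the PI3 kinase and AKT genes the median was -0.18 over 8, and 5 were below 0. Akt1 had -0.88 (SE 0.49), and -0.40 without mutant 8711, while Pik3ca had 0.47 (SE 0.27), with its dimmer probe sets from -0.11 to 0.43. A dimmer Akt1 probe set had -2.13 (SE 0.83), with an unadjusted p of 0.0382 in limma. Its mean intensities were 41.9 in the controls and 12 in the mutants, the latter under the filter level, so the size of this difference is uncertain. Its value without mutant 8711 was not examined here. Another dimmer Akt1 probe set had -0.19 (SE 0.51). By their brightest probe sets, none of these 4 genes had an unadjusted limma p under 0.05.

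**Figure D5:**
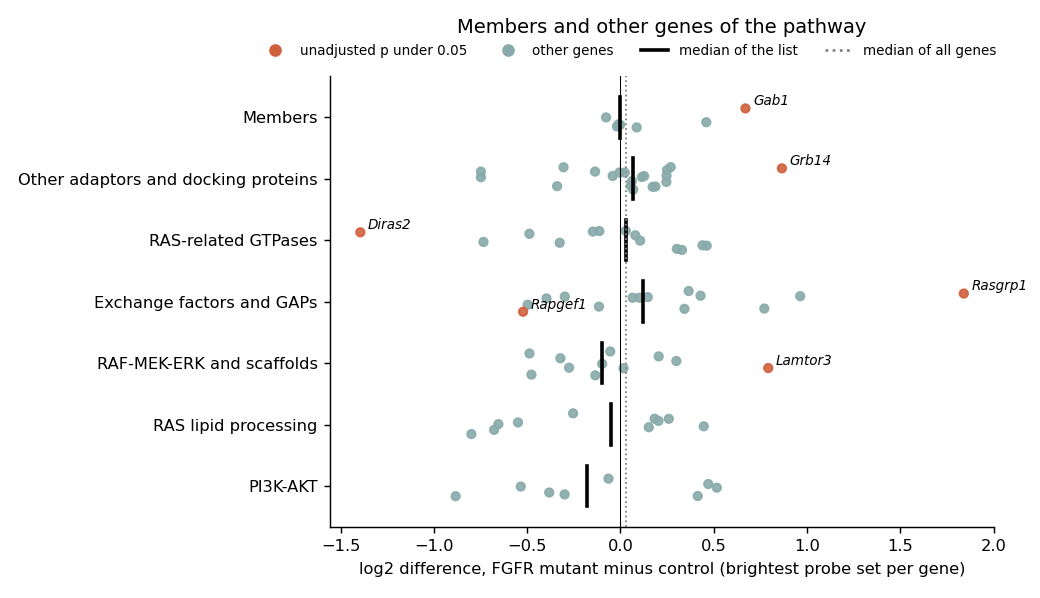
Log2 differences (FGFR mutant minus control) of the 7 members and of 76 other pathway genes by list, each gene by its brightest probe set, with a black bar for the median of the list and a dotted line for the median of all genes (0.032). List medians lie between -0.18 and 0.12, and the 6 genes at an unadjusted p under 0.05 are labelled, of which Gab1, Grb14, Rasgrp1 and Lamtor3 are higher and Diras2 and Rapgef1 lower.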

How the data were processed

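Gene expression was measured in 3 control and 3 FGFR mutant optic fissure samples, 1 Affymetrix array each, grouped by the genotype named in the titles. Per the labels, biotinylated cRNA was made from 10 ug of Trizol-extracted total RNA. MAS5 is named in the submitters' processing notes, with no version or settings given in the sources used here. What the authors deposited are intensity values on a linear scale, which they had scaled to a 2% trimmed mean of 150.0 in every array, and they were not normalized further. Detection calls were not used. With 3 arrays per group, their number limits the precision.

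Of 45101 probe sets, 64 manufacturer controls were left out, 34945 others had 1 symbol, 932 several and 9160 none. Symbols were matched to the reference gene table, and 0 were updated. Intensities were transformed as log2(value + 1.7), where 1.7 is the 10th percentile of all values, and probe sets whose mean was under the 40th percentile (4.07, an intensity of 15.1) were left out, leaving 27022. Groups were compared with limma 3.58.1 (lmFit, eBayes with trend and robust; statmod 1.5.0, R 4.3.3), with Benjamini-Hochberg adjustment over all of them. The method was tested on simulated data. Figures used Python 3.11.15 and matplotlib 3.10.9.

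All member probe sets are named. From each pathway list the 2 genes with the smallest p are named, and for each member the 2 genes of most similar pattern, each gene by its brightest probe set. The members and the lists were chosen with earlier results of these data known. No test was made over a pathway list as a set, and RAS genes outside the members and these lists were not analysed here. The search for probe sets far below the other arrays in 1 array was chosen after its values were seen. Alternatives were leaving out arrays, array weights, a block for the title number, quantile normalization or median centring, other added values and filters, and eBayes without trend and robust.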

Additional observations from a re-analysis of the deposited data

How the results depend on the processing

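Over the 16 alternatives, 0 of the 14 member probe sets passed the adjusted threshold under any, and the lowest adjusted p of a member was 0.155, for Gab1 with array weights. The count of 1 at an unadjusted p became 2 with an added value of 16 and without trend and robust, 3 with array weights, and 0 with median centring and without both 8711 arrays. With 1 array left out it ran from 0 to 2, being 0 without control 8711 or control 9216 and 2 without mutant 8711. The count of 3 whose groups did not overlap became 5 without both 8711 arrays, and 3 to 5 with 1 array left out, where the smaller group makes separation easier. Over all probe sets, the count past the adjusted threshold was 184 with array weights, 1 without both 8711 arrays, and 0 to 1 with 1 array left out. With array weights, which ran from 0.151 for mutant 8711 to 5.98 for control 8711, 2 pathway genes passed, Rasgrp1 (1.72) and Lamtor3 (0.90), against 0 under the other alternatives, leaving out mutant 8711 among them.

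Of the 14 member probe sets, 6 kept their sign under every alternative, namely those of Gab1 and Shc1 and the 2 dimmer ones of Nras. The sign turned for Grb2 1449111_a_at with quantile normalization (0.081), median centring (0.11) and the mean of its probe sets (0.043), for Grb2 1418508_a_at with array weights (-0.52), and for Ptpn11 1427699_a_at with array weights (0.44) and without both 8711 arrays (0.58). It also turned with median centring for Ptpn11 1451225_at (0.10), Sos1 1434389_at (0.093) and Nras 1454060_a_at (0.035). Median centring shifted the median of all probe sets from -0.049 to 0.062. With 1 array left out, Frs3 ran from -0.09 to 0.30, Grb2 from -0.12 to 0.066 (1449111_a_at) and -0.33 to 0.42 (1418508_a_at), Ptpn11 from -0.12 to 0.077 (1451225_at) and -1.09 to 0.55 (1427699_a_at), Sos1 from -0.15 to 0.16 (1434389_at) and -0.38 to 0.29 (1421884_at), and Nras 1454060_a_at from -0.12 to 0.0029. The cause was not tested.

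The title numbers were not taken as pairs, since the labels do not say that they pair arrays. Correlations of deviations from the group means were 0.049, 0.481 and -0.113 for numbers 8711, 9216 and 9266. Between arrays of different numbers they ran from -0.453 to 0.346. With so few arrays these values cannot decide whether the numbers mark pairs. With the number as a replicate block, 1 member probe set was at an unadjusted p under 0.05 and 0 passed, as without it, and 0 of all probe sets passed. Ratios of 3 prime to middle signal differed by 1.20 for Gapdh and 0.17 for Actb on the log2 scale. The stricter filter gave no value for 4 of the 14 member probe sets.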
